A study of Rattus norvegicus with 12 samples.

Results

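The genes of the rat major histocompatibility complex (MHC) were evaluated in whole retinas of RCS rats at postnatal day 21 (p21) and day 60 (p60). They were taken by position, as all genes on chromosome 20 that start between 1500000 and 5700000 in Rnor_6.0, the interval of the RT1 complex. Of the 313 annotated genes in this interval, 152 reached at least 1 CPM (counts per 1000000 counts of the library) in 3 or more of the 12 libraries, and these are called members here. The other 161 were below that level, including 51 without a count in any library. The share of genes that passed was 48.6% in the interval and 46.7% among all 32883 annotated genes. At the edge of this filter, the third highest library of the lowest member had 1.08 CPM and that of the highest excluded gene had 0.988 CPM. Of the members, 121 were at 1 CPM or more in all 12 libraries, and the others passed through part of them. Members 20, 24, 25, 61, 105 and 109 reached it in 3 or more libraries at p21 but in fewer than 3 at p60, and members 31, 51, 66, 71, 90 and 132 did the reverse, so their inclusion rests on 1 age, and a difference in that direction is partly built in. Members are numbered 1 to 152 along the chromosome.

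The MHC holds genes that let the immune system inspect cells. Class I molecules are found on almost all nucleated cells and show peptides from inside the cell to cytotoxic T cells, and they also hold back natural killer cells. Class II molecules, each built from an alpha and a beta chain, are made mainly by antigen-presenting cells, which in the retina include microglia and macrophages, and show peptides from engulfed material to helper T cells. Between them lie class III genes, which include complement components and cytokines. In the rat, class I genes lie on both sides of the class II and class III genes.

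Each combination of age and line had 3 libraries of whole-retina messenger RNA. The lines were the immunocompetent line, RCS-p+, labelled WT and male (p21 libraries 1 to 3, p60 libraries 19 to 21), and the athymic line, RCS-p+/Foxn1mu, labelled female (p21 libraries 4 to 6, p60 libraries 22 to 24). All rats carry the RCS defect in MerTK, a receptor that the retinal pigment epithelium needs to clear shed photoreceptor segments, so no group was without this defect. Foxn1 is required for the thymus, in which T cells mature. Line and labelled sex coincide and cannot be told apart. The labels give each library a number and do not say that each is from a separate animal, so p-values measure the spread between libraries.

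The total counts were between 13852516 and 16725355 per library, of which the members took 0.662% to 0.708% at p21 and 0.8% to 0.871% at p60. Several libraries stood apart. Y-chromosomal genes summed to 328, 316 and 269 CPM in libraries 4, 5 and 22, labelled female, to 229.2 to 323 CPM in all those labelled male, and to 8.79 to 23.2 CPM in libraries 6, 23 and 24. The part of sex in the values below was not tested. In whole tissue, fewer cells of a type and less RNA in each cell cannot be told apart. The files list Ensembl identifiers without gene symbols, so known RT1 genes, class III genes and cell type markers could not be looked up, and members are given by number and position.

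Exon sizes, which the files do give, were used to find genes built like MHC chains. The extracellular domains of a class I chain are encoded by exons of 270, 276 and 276 bases in a row, those of a class II beta chain by 270 and 282, and those of a class II alpha chain by 246 or 249 and then 282. All 14 genes with the class I pattern in the annotation were on chromosome 20, of which 12 were in the interval and 9 were members. The class II alpha pattern was found in 5 genes, all in the interval, of which 3 were members. The class II beta pattern was found in 1 gene of the interval, a member, and in 1 gene on another chromosome, which has 21 exon blocks. The pattern describes the annotation and does not name a gene. Groups of such genes, with other genes between them, were used to mark class I stretches from 1.81 to 2.27 Mb, 4.64 to 4.94 Mb and 5.35 to 5.42 Mb, and a class II stretch from 3.88 to 4.13 Mb. The class III genes have no common exon pattern and could not be delimited. The 5 genes with a pattern that were not members had at most 14 counts in any library.

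The change from p21 to p60 was tested over both lines with line as a covariate. Of the 152 members, 86 (56.6%) were called, meaning that the p-value of the quasi-likelihood test in edgeR was below 0.05 after Benjamini-Hochberg adjustment over all genes tested, and 62.9% of all genes were. Higher at p60 were 47 members (30.9%, against 32.1% of all genes) and lower were 39 (25.7%, against 30.8%). With scaling to total counts alone, which moves the median over all genes from a log2 fold change of 0.01 to 0.20, 76 members (50.0%) were higher and 24 (15.8%) were lower, against 46.3% and 18.3% of all genes, so how the members stand against the background depends on the scaling. Among the calls, 20 members (13.2%) were at least 2-fold higher, against 5.13% of all genes, and 9 (5.92%) were at least 2-fold lower, against 5.35%. Members 31, 51 and 71 of the former and 20, 24 and 25 of the latter passed the level filter through 1 age. Part of these member counts is therefore built in. The genes tested passed edgeR's own filter on counts, which is not the level filter of the members. Each of the 6 p60 libraries was above each p21 library for 31 members (20.4%, against 20.1% of all genes) and below each for 25 (16.4%, against 20.8%).

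Both lines were also tested alone, with 3 libraries per age. In the immunocompetent line, 81 of 150 members tested differed (54%, against 51.4% of all genes), 41 higher (27.3%, against 25.6%) and 40 lower (26.7%, against 25.8%). In the athymic line, 71 of 146 differed (48.6%, against 49.9%), 45 higher (30.8%, against 25.3%) and 26 lower (17.8%, against 24.6%). Of the 146 members tested in both, 52 (35.6%) were called in each line in the same direction, against 40.4% of all genes. Without libraries 3, 4, 5 and 22, which leaves library 6 alone at p21 in the athymic line, 37 of 152 members were called in that line (24.3%, against 20.5% of all genes). The spread in that fit comes from the p60 libraries, since a lone library has none.

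The 20 members that rose at least 2-fold were not spread evenly. Between 3.7 and 4.31 Mb, a stretch chosen after the values were seen, 12 of 22 members rose at least 2-fold and none fell as much. Of these 12, members 51 and 71 passed the level filter through p60, so part of their rise is built in. The 12 also include members 54 and 55, and member 71 with a neighbour, pairs that overlap on the same strand. This stretch includes the class II stretch, in which 6 of 10 members rose, 4 were not called and the median log2 fold change was 1.44. In the class I stretch at 5.35 to 5.42 Mb, 2 of 3 members rose. In the class I stretch at 4.64 to 4.94 Mb, 2 of 10 rose and 2 fell, with a median of 0.12. The 5 members there with the class I pattern were not called, so these calls were in other genes of the stretch. In the class I stretch at 1.81 to 2.27 Mb, 4 of 14 rose and 3 fell, with a median of 0.1. Only 1 of these 14, member 1, has the class I pattern, and it rose. Member 28, which has the pattern too, lies outside the class I stretches. The counts of called members in the stretches stand beside 32.1% of all genes higher and 30.8% lower. The counts at 2-fold or more stand beside 5.13% of all genes higher and 5.35% lower by as much.

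**Figure D1:**
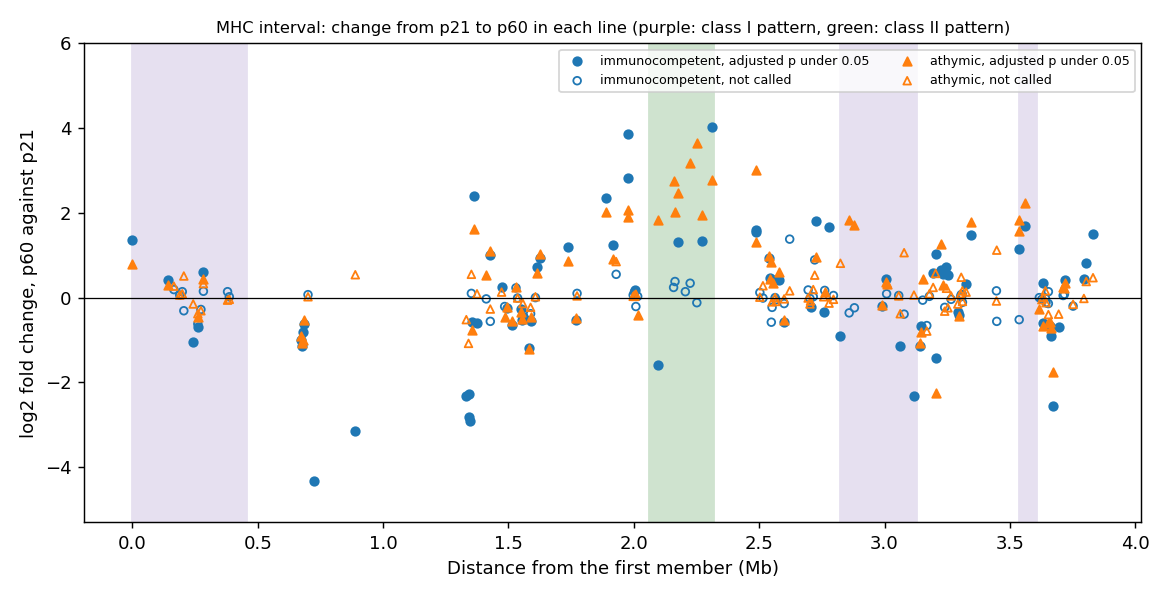
Log2 fold change from p21 to p60 in each line (vertical axis) against distance from the start of the first member in Mb (horizontal axis), 1 point per member and line, filled where called; shading marks stretches with class I (purple) and class II (green) exon patterns. In the class II stretch the 8 athymic points (2 members were removed by edgeR's filter on low counts in that line) lie between 1.82 and 3.64. The immunocompetent points run from -1.6 to 4.03.

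Of the 9 members with the class I exon pattern, 4 rose from p21 to p60 and 5 were not called. Class I chains pair with beta-2 microglobulin at the cell surface, and in the rat only some of the many class I genes encode the classical, strongly expressed chains. Summed over the 9, the level was 161 ± 20.7 normalized CPM at p21 and 326 ± 73.8 at p60 in the immunocompetent line, and 93.3 ± 32.0 and 302 ± 56.0 in the athymic line (SD, n = 3). The athymic sums at p21 were 78.2 and 71.5 in libraries 4 and 5 and 130 in library 6. Those of immunocompetent libraries 1 to 3 were 146, 185 and 154. Normalized CPM are CPM computed on the library size after TMM scaling.

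Member 28 (3.176 Mb) was among the members with the class I pattern the one with the highest level per length, at 32.8 normalized CPM per kb over the 12 libraries. At p21 it had 14.2, 17.8 and 24.5 normalized CPM in libraries 1 to 3 and 35.0, 35.0 and 14.4 in libraries 4 to 6. At p60 it had 136, 71.9 and 88.2 in libraries 19 to 21 and 123, 71.8 and 63.8 in libraries 22 to 24. The ages did not overlap, and its log2 fold change was 2.0 (SE 0.269, adjusted p = 1.78e-05 from edgeR). For the immunocompetent line alone this was 2.39 and for the athymic line alone 1.62 (adjusted p = 6.24e-05 and 0.00471).

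Members 131 (5.352 Mb) and 133 (5.375 Mb) lie in the last class I stretch and share exonic positions on the same strand, so their counts are uncertain. Member 133 had 24.5, 23, 17.6, 9.43, 8.45 and 20.9 normalized CPM in libraries 1 to 6 and 82.4, 55.1, 72.4, 65.1, 47.9 and 73.0 in libraries 19 to 24. It rose by a log2 fold change of 1.96 (SE 0.214, adjusted p = 2.31e-06), without overlap of the ages. Member 131 had 26.9, 47.0, 40.7, 14.0, 12 and 23.9 at p21 and 100, 65.6, 89.1, 68.6, 50.9 and 58.9 at p60. Its ages did not overlap either, with the closest values in library 2 at p21 and library 23 at p60, and it rose by 1.48 (SE 0.198, adjusted p = 1.71e-05). In both members, libraries 4 and 5 were the lowest.

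Member 1 (1.815 Mb), the first of the interval, was lower, with 4.28, 4.95, 4.92, 8.86, 6.06 and 4.02 normalized CPM at p21 and 13.1, 10.9, 12.3, 12, 10.1 and 10.8 at p60. It rose by 1.07 (SE 0.169, adjusted p = 7.77e-05), and the ages did not overlap. For these 4 members the call and the direction held under each alternative run.

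The other 5 members with the class I pattern all start between 4.639 and 4.932 Mb on the minus strand. Each shares exonic positions with a neighbour on its strand, so reads may have been lost or split between them in the counting. None was called over both lines, and the p21 libraries of the athymic line were far apart in each. Member 97 (4.674 Mb) had 20.8, 25.8 and 16.6 normalized CPM in libraries 1 to 3 and 17.6 in library 6, whereas libraries 4 and 5 had 3.22 and 2.54. At p60 it had 17.5, 13.8, 18, 29.7, 24 and 30.8 in libraries 19 to 24. Its log2 fold change was 0.71 (SE 0.467, adjusted p = 0.203), and -0.03 without libraries 4 and 5 (adjusted p = 0.907), an alternative added after the values were seen. As libraries 4 and 5 were the lowest, that shift downward is built in.

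Member 98 (4.694 Mb) had the same order of libraries, with 20.8, 31.9, 25.6 and 20.6 in libraries 1, 2, 3 and 6, against 3.36 and 2.92 in libraries 4 and 5. At p60 it had 25.0, 16.3, 24.9, 38.1, 28.0 and 23.4. Member 104 (4.893 Mb) had 29.4, 29.1, 19.5 and 23.8 in those 4 libraries, 3.57 and 4.26 in libraries 4 and 5, and 22.7, 16.3, 20.8, 23.2, 18.2 and 25.9 at p60. The values of libraries 4 and 5 were thus below all 10 other libraries in members 97, 98 and 104, and the low level at p21 was not shared by library 6 of the same age and line.

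The remaining pair, members 96 and 105, had lower levels. Member 96 (4.639 Mb) had 2.86, 2.71, 2.5, 0.5, 0.224 and 2.55 normalized CPM at p21 and 1.72, 1.65, 0.932, 2.31, 1.46 and 2.21 at p60. Member 105 (4.932 Mb) had 1.98, 2.37, 1.74, 0.286, 0.0748 and 2.11 at p21 and 0.264, 0.381, 0.559, 0.768, 0.974 and 0.946 at p60. In the immunocompetent line alone, where libraries 4 and 5 play no part, both fell, with log2 fold changes of -0.91 (adjusted p = 0.0289) and -2.31 (adjusted p = 0.000697). Over both lines without libraries 4 and 5, they were -0.72 (adjusted p = 0.0271) and -1.9 (adjusted p = 0.000212), against -0.06 (adjusted p = 0.914) and -1.08 (adjusted p = 0.126) with them. Leaving out library 4 or library 5 alone was enough for member 105 to be called, with -1.38 and -1.42. Libraries 4 and 5 were the lowest at p21 in both members, so leaving them out shifts the change downward by construction. Leaving out both was added after the values were seen. Member 105 also reached 1 CPM in 4 p21 libraries but only 2 p60 libraries, so part of its fall is built in.

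**Figure D2:**
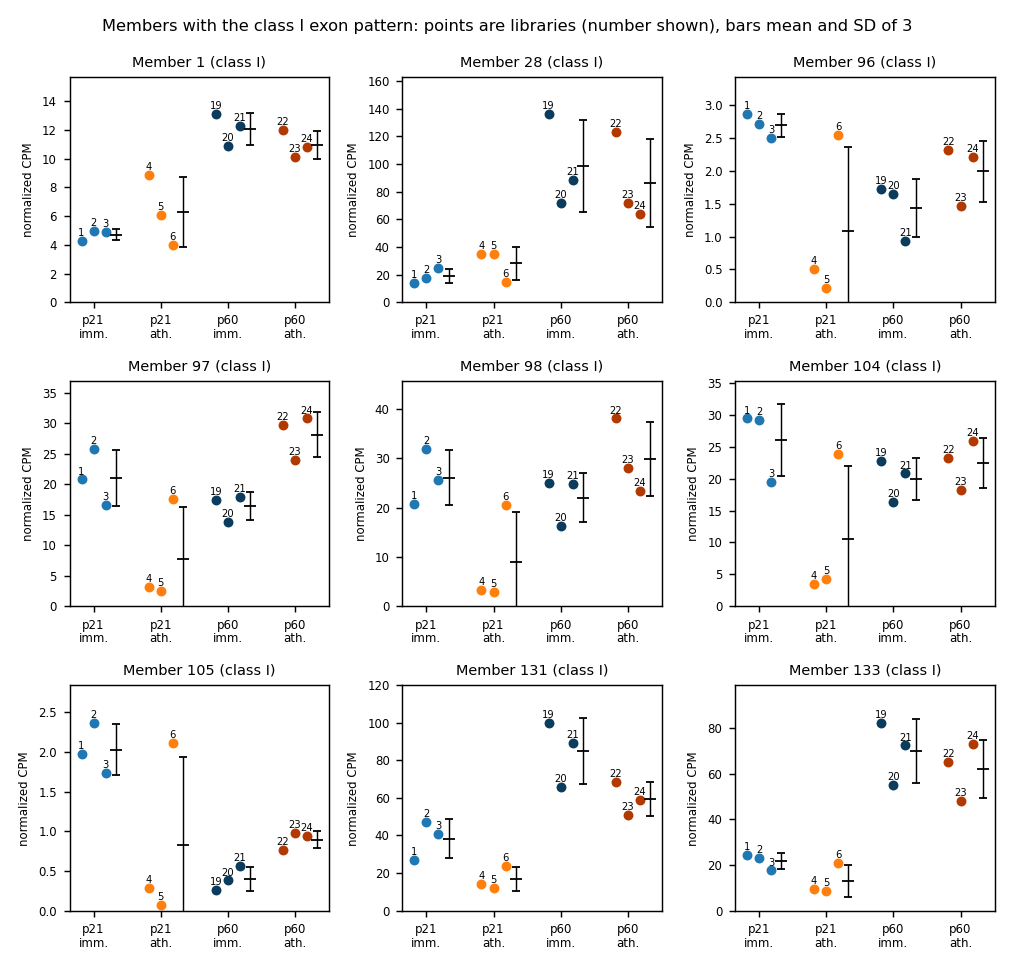
Normalized CPM (vertical axes, from 0) of the 9 members with the class I exon pattern in the 4 groups, 1 point per library with its number; black marks are the mean ± SD of 3 libraries, cut at 0. Members 28, 131 and 133 lie above their p21 range in all p60 libraries, and in members 96, 97, 98, 104 and 105 libraries 4 and 5 lie below libraries 1, 2, 3 and 6.

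The class II stretch was expressed at a low level, with a median of 1.76 normalized CPM per kb over its 10 members. Class II chains work as an alpha and beta pair, and the 4 members with a class II pattern were members 66 (beta), 68 and 70 (alpha) in this stretch and member 111 (alpha), which lies apart at 5.009 Mb. Summed over these 4, the level was 20.5 ± 7.4 normalized CPM at p21 and 38.0 ± 6.69 at p60 in the immunocompetent line, and 13.0 ± 3.66 and 42.2 ± 3.85 in the athymic line (SD, n = 3). Member 111 has 17 exon blocks, and whether it encodes a class II chain was not tested. Without member 111, the other 3 summed to 12.2 ± 7.97 at p21 and 25.6 ± 4.99 at p60 in the immunocompetent line, and to 3.45 ± 1.98 and 30.8 ± 4.85 in the athymic line.

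Member 70, ENSRNOG00000032844, at 4127644 to 4132616 on the minus strand, had the largest rise of all called members. Its counts per library were 10 to 44 at p21 and 142 to 343 at p60. At p21 this was 0.793, 1.15, 0.756, 3.14, 1.94 and 0.639 normalized CPM, and at p60 12.4, 17.0, 15.6, 8.39, 9.13 and 21.6. The ages did not overlap, and the log2 fold change was 3.34 (SE 0.369, adjusted p = 2.6e-06), with 4.03 and 2.78 in the immunocompetent and athymic lines (adjusted p = 9.6e-07 and 0.00268). Libraries 4 and 5 were the highest at p21 for this member, in contrast to the class I members of 4.64 to 4.94 Mb.

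Member 68 (4.066 Mb), the other alpha pattern of the stretch, was the most abundant there per length, with 7.04 normalized CPM per kb. At p21 it had 2.06, 17.2 and 12.6 normalized CPM in libraries 1 to 3 and 2.29, 1.27 and 0.447 in libraries 4 to 6. At p60 it had 8.39, 12.6, 8.58, 20.4, 15.4 and 13.8. The ages overlapped only through libraries 2 and 3, and the change over both lines was not called (log2 fold change 1.5, SE 0.673, adjusted p = 0.0673). It was called when library 2, 3, 19 or 21 was left out, with 1.73 to 1.97, and by DESeq2 with 1.74, whereas without libraries 4 and 5 it was 0.77 (adjusted p = 0.408). It rose by 3.64 in the athymic line alone (adjusted p = 0.00012), and was at -0.12 in the immunocompetent line (adjusted p = 0.865). The interaction of age and line was 3.76 with an adjusted p of 0.176.

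Member 66 (4.020 Mb), with the beta pattern, had at most 28 counts in any library and was not called (log2 fold change 1.22, adjusted p = 0.0862). It stayed uncalled in 15 of 19 alternative runs. It was called without library 19 (1.53, adjusted p = 0.0214) and without libraries 4, 19 and 24 (1.34, adjusted p = 0.0122). DESeq2 (1.3, adjusted p = 0.0498) and total counts alone (1.41, adjusted p = 0.0497) called it too. It reached 1 CPM in 0 p21 libraries and 3 p60 libraries, so part of its change is built in. Its p21 values were 0 to 0.746 normalized CPM and its p60 values 0.198 to 1.7. Member 111 ranged from 7.1 to 11.8 normalized CPM at p21 and from 9.84 to 14.6 at p60, and rose by 0.42 (SE 0.134, adjusted p = 0.0149). Its 17 exon blocks set it apart from the other members with a class II pattern, which have 4 to 6.

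Of the members of the stretch without a pattern, 5 rose. Member 64 (3.991 Mb) had 2.06, 3.32, 4.01, 1.43, 1.12 and 1.41 normalized CPM at p21 and 8.06, 5.78, 9.57, 8.33, 6.69 and 7.06 at p60, without overlap, a log2 fold change of 1.85 (SE 0.237, adjusted p = 1.14e-05). Member 69 (4.088 Mb) had 1.19, 4.95, 4.84, 3.93, 2.32 and 0.511 at p21 and 8.12, 10.2, 9.57, 8.87, 7.0 and 9.97 at p60, and rose by 1.63 (adjusted p = 0.0015). Both were called in each line. Members 62 (3.973 Mb), 63 (3.979 Mb) and 67 (4.039 Mb) rose by 1.38, 1.16 and 1.57 over both lines. They were called in the athymic line (2.76, 2.01 and 3.18) and not in the immunocompetent line (0.24, 0.38 and 0.34), where libraries 2 and 3 were already high at p21. Without libraries 4 and 5, none of these 3 was called over both lines (0.9, 0.73 and 1.05, adjusted p = 0.139, 0.0903 and 0.196). Member 67 also lost its call without library 4, 5 or 6 alone, with 1.3 to 1.44. The other members of the stretch were members 61 and 65, which were not called and are described with their possible copies.

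**Figure D3:**
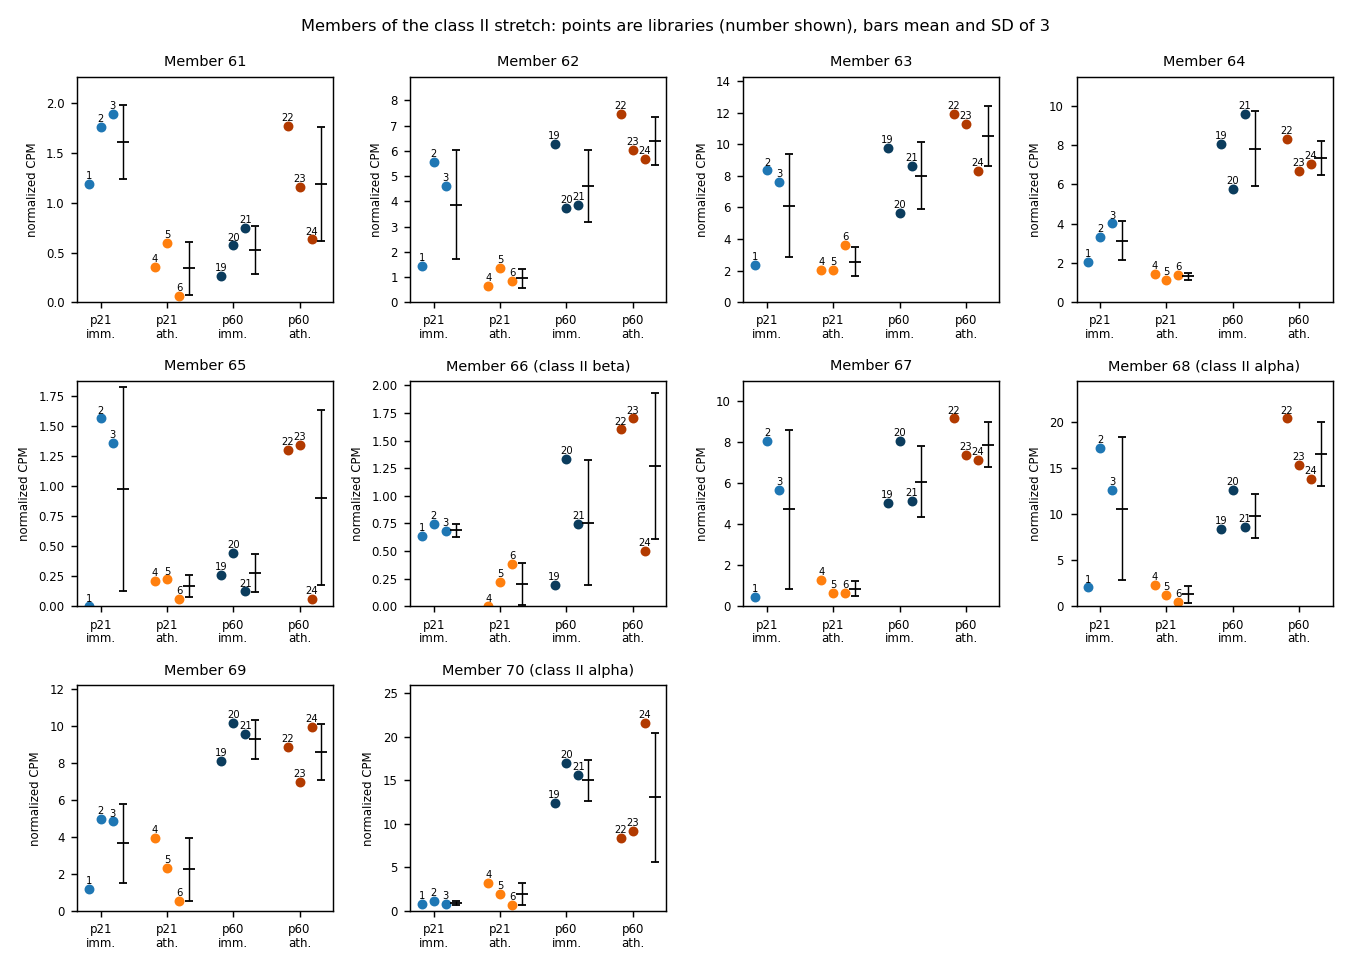
Normalized CPM (vertical axes, from 0) of the 10 members of the class II stretch in the 4 groups, 1 point per library with its number; black marks are the mean ± SD of 3 libraries, cut at 0. Member 70 has its p60 libraries at 8.39 or more and its p21 libraries at 3.14 or less, whereas in members 62, 63, 67 and 68 libraries 2 and 3 lie near the p60 level and library 1 lies with libraries 4 to 6.

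Outside the class I and class II patterns, the largest rises were in members 54, 55, 71 and 51. Member 54, ENSRNOG00000047706, at 3791407 to 3794027 on the minus strand, had 1.82, 4.61, 6.81, 16.6, 15.3 and 3.07 normalized CPM at p21 and 73.6, 52.4, 66.7, 64.1, 46.5 and 35.5 at p60. The ages did not overlap, and libraries 4 and 5 were the highest at p21. The log2 fold change was 2.89 (SE 0.419, adjusted p = 3.63e-05), with 3.85 and 2.07 in the immunocompetent and athymic lines (adjusted p = 1.38e-05 and 0.00697), and 3.9 over both lines without libraries 4 and 5. As these were the highest at p21, that shift upward is built in. Member 55 overlaps it on the same strand. It ranged from 0.766 to 2.32 normalized CPM at p21 and reached 5.42 to 10.8 at p60, a log2 fold change of 2.37 (adjusted p = 2.44e-06). The counts of this overlapping pair are uncertain.

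Member 71 (4.302 Mb) overlaps member 72 on the same strand, and 14 of its exon sizes in a row also occur in a gene at 2651599 that was no member. Its range was 0.192 to 1.02 normalized CPM at p21 against 1.4 to 4.67 at p60, a rise of 2.3 (SE 0.373, adjusted p = 0.000101), and member 72 rose by 1.44 (adjusted p = 6.77e-07). Member 51 (3.705 Mb) ranged from 0.523 to 1.15 at p21 and from 2.16 to 5.47 at p60, a rise of 2.18 (adjusted p = 2.01e-05), and overlaps a gene on the opposite strand. The ages did not overlap in any of the 3. Members 71 and 51 reached 1 CPM in 0 and 1 p21 libraries and in 6 p60 libraries, so part of their rise is built in.

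Of the members that fell, member 20, ENSRNOG00000058238, at 2540864 to 2541440 on the minus strand, had the largest log2 fold change over both lines, -2.6 (SE 0.757, adjusted p = 0.00827). It is a member only through 4 p21 libraries, and it rests on few counts. It had 25, 26, 42 and 31 counts in libraries 1, 2, 3 and 6, 1 count each in libraries 4 and 5, and 1 to 7 counts in the p60 libraries, so the ages overlapped through libraries 4 and 5. Without these it was -3.52 (adjusted p = 2.56e-05), a shift downward that is built in, since libraries 4 and 5 were the lowest at p21.

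Member 144, ENSRNOG00000000478, at 5486474 to 5499010 on the minus strand, was the next by size of its fall. At p21 it had 162, 131, 103, 83.1, 85.4 and 101 normalized CPM, and at p60 18.4, 22.9, 26.2, 24.4, 28.8 and 27.4. The ages did not overlap, and the log2 fold change was -2.14 (SE 0.159, adjusted p = 4.55e-08), with -2.55 in the immunocompetent and -1.75 in the athymic line (adjusted p = 3.33e-06 and 2.27e-06). Member 113 (5.021 Mb) had 57.3, 50.4, 78.1, 115, 116 and 48.5 at p21 and 17.2, 25.6, 26.0, 19.7, 22.5 and 17.0 at p60, a log2 fold change of -1.83 (SE 0.23, adjusted p = 9.26e-06). Libraries 4 and 5 were here the highest, and without them the value was -1.38 (adjusted p = 6.81e-06), a shift that is built in.

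Members 22 to 25 lie in a row between 3.147 and 3.162 Mb, and each was low in libraries 4 and 5 against the other p21 libraries. Member 23 (3.156 Mb) had 5.71, 6.03, 4.84, 1.43, 1.2 and 7.54 normalized CPM at p21 and 1.19, 1.46, 0.746, 0.709, 1.22 and 2.96 at p60, a log2 fold change of -1.67 (SE 0.477, adjusted p = 0.00749). Member 25 fell with -1.83 (adjusted p = 0.0129) and member 24 with -1.66 (adjusted p = 0.05 after rounding, just below the threshold), both members through 4 p21 libraries and, for member 24, 1 p60 library, whereas member 22 was not called (-1.39, adjusted p = 0.0711) but was without library 4, 5 or 24 (-1.69 to -2.01). In the immunocompetent line alone all 4 fell, by log2 fold changes of -2.28 to -2.91. The call of member 24 was lost without library 1, 2, 3, 6, 19, 20, 21, 22 or 23, with values from -1.12 to -1.63.

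The highest levels per length were in members outside the class I and class II patterns. Member 45 (3.422 Mb) had 210 normalized CPM per kb over the 12 libraries, and members 99, 78, 126 and 125 had 106, 91.7, 80.7 and 75.4. Their changes were small. Member 45 ranged from 414 to 489 normalized CPM at p21 and from 436 to 470 at p60, with a log2 fold change of 0.01 (adjusted p = 0.85). Member 126 (5.140 Mb) rose by 0.24 (SE 0.0487, adjusted p = 0.000728), from 466 to 572 at p21 to 577 to 621 at p60. Member 99 (4.806 Mb) ranged from 527 to 577 at p21 and from 440 to 517 at p60, with -0.18 (adjusted p = 0.0037), and member 78 had -0.16 (adjusted p = 0.0473). With scaling to total counts alone, members 99 and 78 were at 0.01 and 0.03, so their direction depends on the scaling, and member 45 was at 0.20 (adjusted p = 0.000957). The call of member 78 was also lost without library 1, 2, 4, 5, 19, 20, 21, 22 or 23, with -0.11 to -0.17.

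The lines were compared as labelled. No member was called between the athymic and immunocompetent lines over both ages by edgeR (0%, as for all genes). At an unadjusted p under 0.05 were 14 of 152 members (9.21%, against 12% of all genes). DESeq2 called 2 members (1.32%), among 262 of all genes (1.66%). At p21 alone, no member was called by edgeR (0% of all genes), and 30 of 147 were at an unadjusted p under 0.05 (20.4%, against 12.7%). DESeq2 called 2 members (1.36%) there, among 140 of all genes (0.92%). At p60 alone, no member was called by edgeR (0.0193% of all genes), and 19 of 147 were at an unadjusted p under 0.05 (12.9%, against 9.4%). DESeq2 called 4 members (2.72%) there, among 106 of all genes (0.681%). For the interaction of age and line, no member was called by edgeR (0.00622% of all genes), and 34 of 152 were at an unadjusted p under 0.05 (22.4%, against 9.3%). DESeq2 called 5 members (3.29%) for it, among 146 of all genes (0.909%). The 2 that DESeq2 called over both ages were member 131 (-0.84, lower in the athymic line, adjusted p = 0.029) and member 147 at 5.532 Mb (-0.21, adjusted p = 0.0353).

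Whether edgeR called members between the lines at 1 age, or for the interaction, depended on single libraries. Without library 6, edgeR called 5 members as lower in the athymic line at p21, of 7 genes called in all. They were members 21, 22, 97, 98 and 104, with log2 fold changes of -4.03 to -2.72, the members in which libraries 4 and 5 were low. For the interaction without library 6, 6 of the 8 genes called were members (20, 21, 97, 98, 104 and 105, from 2.88 to 6.35). Without library 1, edgeR called members 62, 67, 68 and 77 at p21, from -3.49 to -1.01, among 85 genes, and members 62, 63, 67, 68 and 128 for the interaction, among 138 genes. These numbers follow libraries that were singled out after their values were seen, and they compare those libraries, not the lines. For the interaction, leaving out library 24 gave members 77 and 128, among 92 genes. The share at an unadjusted p under 0.05 for the interaction did not rest on 1 library. With 1 library left out it was 15.1% to 31.6% of members, against 6.84% to 11.3% of all genes.

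The spread within an age was therefore described for all genes past the level filter. Within the 6 libraries of an age, the largest ratio between neighbours in rank was taken, with each library held at no less than the CPM of 3 counts. A ratio of at least 2 was found at p21 for 23 members (15.1%), against 4.22% of all 15367 genes past the filter, and at p60 for 11 members (7.24%), against 3.51%. At either age it was found for 27 members (17.8%), against 5.75%. Of these 27, 8 were among the 10 members of the class II stretch and 5 among the 10 members of the class I stretch at 4.64 to 4.94 Mb.

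At p21, the libraries below the gap were 4 and 5 for 11 members, of 13 genes with this split among the 15367 past the filter. The 11 members are numbers 20 to 25 (2.541 to 3.162 Mb) and 96, 97, 98, 104 and 105 (4.639 to 4.932 Mb). In 1 further member, number 54, and in no other of these 15367 genes, libraries 4 and 5 were above a 2-fold gap. The libraries below the gap were 1, 4, 5 and 6 for 7 members (62, 63, 65, 67, 68, 128 and 130), with libraries 2 and 3 above it, as for 134 of the 15367 genes. These members lie at 3.973 to 4.066 Mb and at 5.198 and 5.262 Mb. Of the athymic libraries, numbers 4 and 5 were those with high Y values at p21, and the part of this in the gaps was not tested. Single libraries were below the gap in member 31 (library 4), member 132 (library 5) and members 69 and 71 (library 6).

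At p60, libraries 22 and 23 were above the gap for 3 members (21, 65 and 128) of 112 such genes past the filter, and library 24 was above it for 3 members (22, 23 and 24) of 7 such genes. The other members with a gap at p60 were members 7, 25, 61, 66 and 85. Member 22 had 10.2 normalized CPM in library 24 and 1.34 to 3.19 in the other p60 libraries. Member 21 (2.704 Mb) had 10.2, 10.6, 8.55, 0.572, 0.598 and 6.58 at p21 and 1.19, 0.825, 1.31, 4.67, 5.23 and 1.7 at p60. Its level in libraries 22 and 23 lay between those of the other p60 libraries and library 6.

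**Figure D4:**
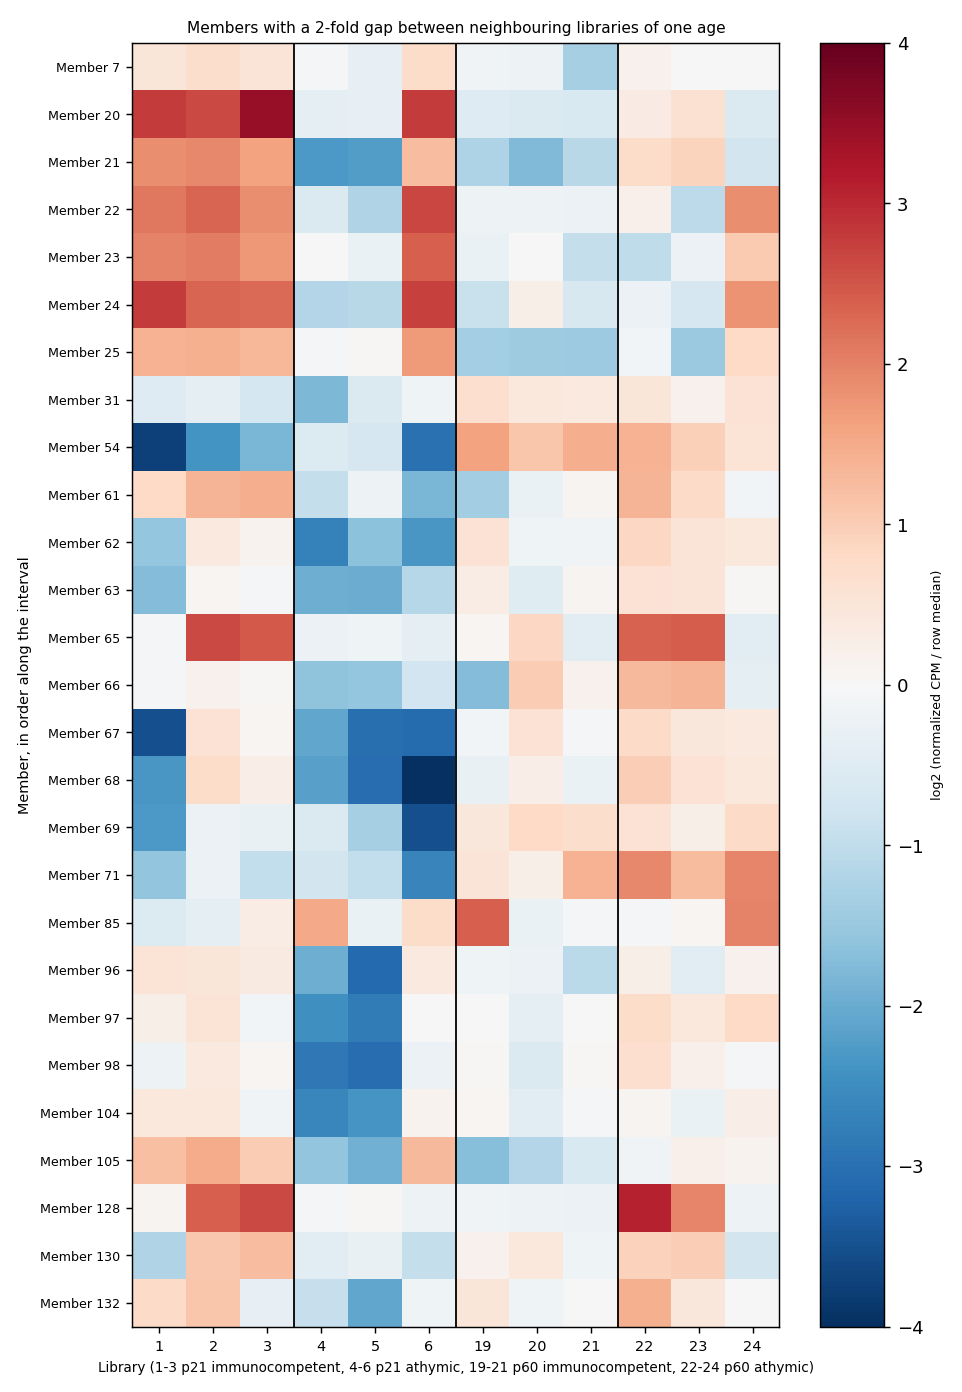
Heat map of the 27 members with a gap of at least 2-fold between neighbouring libraries of 1 age (rows, in order along the interval) in the 12 libraries (columns); color is log2 of normalized CPM over the median of the row, held at no less than 3 counts. Libraries 4 and 5 are low in members 20 to 25 and 96 to 105 against the other p21 libraries, and libraries 2, 3, 22 and 23 are high in members 65, 128 and 130.

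Genes with at least 5 of the same exon sizes in a row were taken as possible copies, without a comparison of sequence. Where they are copies, their reads may be lost or split. Members 50 and 110 share 7 sizes and had 49.1 to 59.5 and 79.2 to 94.2 normalized CPM over the 12 libraries, without a gap. Members 65 (3.996 Mb) and 128 (5.198 Mb) share 10 sizes, and each shares 6 with member 63. Member 65 had 0, 23, 18, 3, 3 and 1 counts at p21 and 4, 7, 2, 22, 22 and 1 at p60. Member 128 had 2, 17, 18, 0, 2 and 0 counts at p21 and 0, 2, 2, 31, 14 and 2 at p60. Both were high in libraries 2, 3, 22 and 23 and neither was called with age (log2 fold change 0.12 and 0.13). Members 61 (3.911 Mb) and 130 (5.262 Mb) share 7 exon sizes in a row. Member 61 had 15, 26, 25, 5, 8 and 1 counts at p21 and 4, 9, 12, 30, 19 and 10 at p60, and member 130 had 8, 46, 46, 15, 16 and 12 at p21 and 25, 31, 21, 47, 48 and 14 at p60. In this pair too, libraries 2 and 3 were the highest at p21 and libraries 22 and 23 were the highest at p60.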

How the data were processed

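Poly(A)-selected whole-retina RNA of 12 libraries was sequenced. Per the labels and the methods, the authors mapped reads with STAR 2.5.2b to Rnor_6.0 and counted them per gene with featureCounts (Subread 1.5.2 per the labels, another version per the methods), and they deposited raw counts without normalization. The strand setting, the handling of reads with several positions and the annotation release are not given in the sources used here, and 49 members overlap exons of another gene.

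From the counts, edgeR 4.0.16 in R 4.3.3 was used with filterByExpr, TMM scaling and the quasi-likelihood test, with Benjamini-Hochberg adjustment over all genes tested at 0.05. Each SE given is the absolute log2 fold change divided by the square root of the F statistic of that test. Alternatives were DESeq2 1.42.0, DESeq2's size factors, total counts alone, no filter, no line term and leaving out libraries. Plots were drawn with matplotlib 3.10.9. The fits were tested on simulated data. Members and lists were chosen with earlier results of these data known. Members named were the 5 largest rises and falls, the 5 highest levels per length and, added after the files were seen, those with an MHC exon pattern or a 2-fold gap. The exon patterns, the stretches and the gap rule were also set then. Without symbols, 2 rises and 2 falls are given by identifier, and lists of marker and pathway genes were not analysed here. No sequence was printed, since no identifier could be matched to one.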

Additional observations from a re-analysis of the deposited data

Results flagged for a closer look

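Dixon's test was applied to the 6 libraries of each age in 42 members (84 tests), and marked 5 of them. About 1 in 20 would be marked by chance in members chosen without regard to their libraries, but 27 of the 42 were named for a gap between libraries, including all 5, so that rate does not apply. At p60, library 24 was far above the others in members 22, 23 and 24, with 10.2, 2.96 and 1.7 normalized CPM, library 22 was far above them in member 132 at 5.352 Mb with 2.54, and library 21 was far below them in member 7 at 2.058 Mb with 0.808.

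In member 61 (3.911 Mb), every p60 library of the immunocompetent line was below its p21 libraries and every p60 library of the athymic line was above its p21 libraries. The interaction of age and line had a log2 value of 3.42 (adjusted p = 0.177 by edgeR's quasi-likelihood test), so the difference did not pass the test, and by DESeq2 it did, with 3.44 (adjusted p = 0.0218).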

How the results depend on the processing

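No paired analysis was possible because no group shares a library number with another. The number of members called with age stayed within 1.5 times of 86 over both lines (78 to 100, 51.3% to 65.8%, against 39.7% to 64.6% of all genes). In the immunocompetent line it stayed within 1.5 times of 81 (68 to 81, 45.0% to 54.0%, against 33.8% to 53.5%). In the athymic line it was 37 without libraries 3, 4, 5 and 22, against 71, and 52 to 71 with 1 library left out. With 1 library left out, 34.4% to 47.7% of members were called in that line, against 41.2% to 46.0% of all genes. For the lines over both ages, the count of 0 members became 2 with DESeq2 (1.32%, against 1.66% of all genes). For the interaction it became 5 with no filter (3.29%, against 0.466% of all genes) and 5 with DESeq2 (3.29%, against 0.909%). With 1 library left out it was 0 to 6, the 6 being without library 6 (3.95%, against 0.049%). At p21 it became 10 with no filter, 2 with DESeq2, 17 without libraries 3, 4, 5 and 22 (which leaves library 6 as the lone athymic library, assumed to vary like the others) and 0 to 5 with 1 library left out. At p60 it became 4 with DESeq2 (2.72%, against 0.681% of all genes) and 4 without libraries 4, 19 and 24 (2.68%, against 1.14%). With 1 library left out it was 0 to 1, the 1 being without library 24 (0.671%, against 0.386%). The alternatives at single ages, and leaving out libraries 4 and 5, were added after seeing the data. Over all genes, those p21 counts were 282 with no filter, 140 with DESeq2 and 1257 without libraries 3, 4, 5 and 22. Over 42 named members, 711 of 834 alternative values kept direction and call, 38 gained a call, 36 lost one and 49 changed sign. Called members that did so were 99 and 78, under total counts alone (0.01 and 0.03). The others were never called in the fits concerned. Under total counts alone, members 96, 125 and 61 were at 0.13, 0.1 and 0.16, and by DESeq2 member 61 was at 0.04. Without libraries 4 and 5, members 97, 104, 45, 65, 128 and 132 were at -0.03, -0.28, -0.04, -0.57, -1.12 and -0.06. Without libraries 3, 4, 5 and 22, members 97, 98, 104, 45, 65, 128 and 132 were at -0.12, -0.05, -0.4, -0.05, -0.33, -0.98 and -0.42. Without libraries 4, 19 and 24, members 104, 45, 61 and 85 were at -0.02, -0.03, 0.16 and -0.16. With 1 library left out, member 96 ranged from -0.35 to 0.24, member 45 from -0.01 to 0.05, member 61 from -0.4 to 0.31, member 65 from -0.25 to 0.65 and member 128 from -0.7 to 0.64. Where the causes of these shifts are not in the construction of the alternative, the cause was not tested. Members with under about 30 counts in a library are limited by depth.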
